A study of Mus musculus with 10 samples.

Results

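Transcript levels of Rybp-null and wild type mouse embryonic stem (ES) cells were compared before differentiation, at day 0. Each genotype had 1 library at that day, so the comparison rests on 2 of the 10 libraries of the study. The other 8 libraries are cultures differentiated from these cells toward the heart lineage and taken at day 8 or 14, with 2 libraries per genotype and day. The wild type and the null mutant cells share a 129x1 x 129S1 background, and the ES cells were grown in serum with leukemia inhibitory factor. How the null allele was made, and how many lines or clones carry it, is not given in the sources used here, so a difference between the genotypes and a difference between these lines cannot be told apart. With 1 library on each side nothing at day 0 was tested. Levels are counts scaled to library size (CPM), and ratios are of CPM in null over wild type cells unless stated otherwise, with a 95% counting interval in brackets, and log2 ratios carry a prior count of 2 that shrinks them for low genes. The intervals cover counting error only and not the spread between cultures.

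RYBP binds the RING1 ubiquitin ligases and is a subunit of the variant forms of Polycomb repressive complex 1 (PRC1), which mark histone H2A with ubiquitin. The variant form built on PCGF6 also holds MGA, MAX, L3MBTL2 and E2F6, and in ES cells it is known for silencing genes of the germ line. ES cells cultured in serum are a mixture of states, among them a rare state with transcripts of the 2-cell embryo, and they can be read by the naive pluripotency genes and by the genes of the later, formative state.

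The null library held 6890792 counts and 21535 detected genes, and the wild type library 3419681 counts and 18428 genes. The 8 later libraries held between 3028153 and 4164476 counts. Of 36191 genes in the table, 10865 reached 5 CPM in either ES cell library and were compared. Of these 195, or 1.79%, were higher by 4-fold or more in the null library and 78, or 0.718%, lower by as much. At 2-fold, 813 genes (7.48%) were higher and 470 (4.33%) were lower. Most of the 195 were rare in wild type cells, with a wild type median of 1.32 CPM and a null median of 10.8 CPM, and 24 of them had 0 wild type counts. Among genes at 5 CPM or more in the wild type library, a filter chosen after the values were seen, 35 were at least 4-fold higher. The 78 lower genes had a median of 18.1 CPM in wild type and 2.37 CPM in null cells. In bulk RNA, fewer cells of a type and less RNA per cell cannot be told apart.

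How far 2 libraries of 1 genotype lie apart can be seen in the later cultures. By the same rule, 0.477% to 1.14% of genes differed at least 4-fold between replicates of a group, against 2.51% between the genotypes at day 0. At 2-fold the shares were 4.81% and 5.65% between wild type replicates, 11.6% and 9.23% between null replicates, and 11.8% between the genotypes at day 0. The 4-fold share at day 0 was thus above that of all 4 replicate pairs. The 2-fold share was close to that between null replicates of day 8, so a single gene near 2-fold at day 0 lies within a spread seen between replicates.

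**Figure D1:**
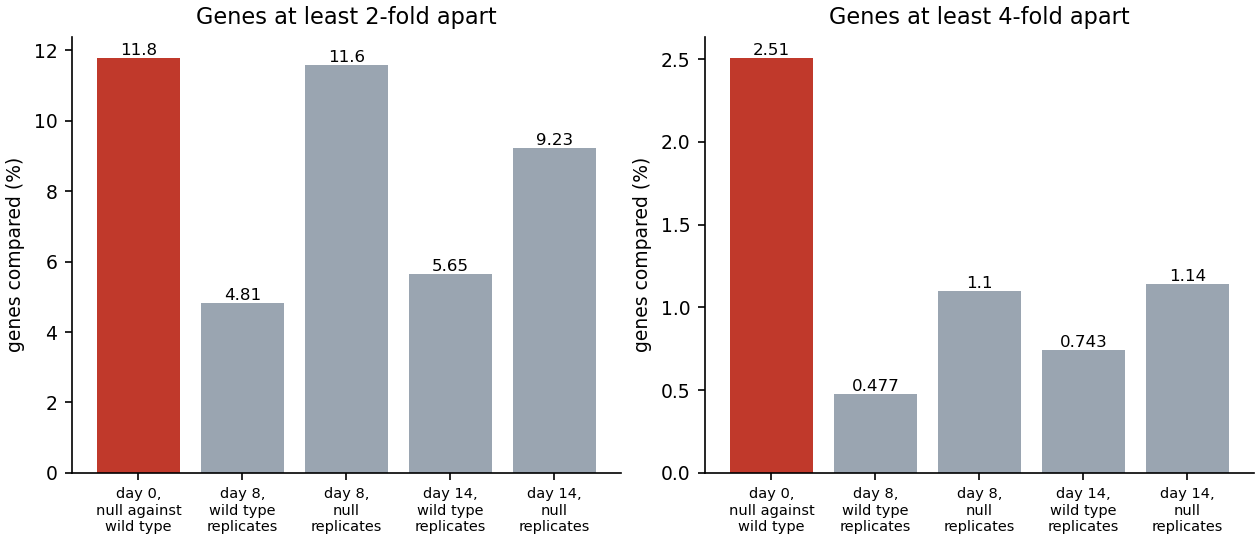
Share of compared genes (%) at least 2-fold (left) and at least 4-fold (right) apart between 2 libraries; the red bar is null against wild type at day 0, grey bars are replicate pairs of days 8 and 14. At 4-fold the day 0 pair reached 2.51% against at most 1.14% between replicates, while at 2-fold it was at 11.8% against up to 11.6%.

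Rybp (ENSMUSG00000072872, chromosome 6) had 3 counts in the null and 231 in the wild type ES cell library, or 0.508 against 76.2 CPM. The wild type level was 150 times the null level (50.7 to 733). Its processed pseudogene Rybp-ps, which may share its reads, was at 0.508 against 56.7 CPM. The paralog Yaf2, which takes the same place in PRC1, was at 7.28 against 10.6 CPM, with an interval of the ratio that holds 1 (0.426 to 1.13). The catalytic subunit Rnf2 was at 139 against 94.7 CPM, a ratio of 1.47 (1.29 to 1.69), and it lies on chromosome 1, whose compared genes had a median ratio of 1.47. Its paralog Ring1 was at 2.03 against 1.32 CPM, under the 5 CPM minimum, with a wide interval of the ratio (0.466 to 6.55). Besides Rybp itself, then, the 2 compared genes of this group, Yaf2 and Rnf2, had ratios within 2-fold, and Ring1 was too low to compare.

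Of 26 other subunits of variant PRC1, 24 were compared and 20 were within 2-fold. In the PCGF6 form, the DNA-binding subunit Mga was at 1242 against 1417 CPM, its partner Max at 279 against 331 CPM, and Pcgf6 at 45 against 48.2 CPM. L3mbtl2, a reader of methylated histones, was at 7.95 against 16.8 CPM, a ratio of 0.473 (0.311 to 0.717). E2f6, a repressor of the E2F family, was at 23.7 against 11.5 CPM (ratio 2.05, 1.41 to 3.06). Bcorl1, a corepressor of the PCGF1 form, was at 7.95 against 2.64 CPM (3.01, 1.41 to 7.38), and Bcor was even at 28.6 against 28.4 CPM. Bcorl1 entered through its null level alone, and of the 22 subunits at 5 CPM or more in wild type cells 1 was at least 2-fold higher. In all, 3 subunits were at least 2-fold higher, and 1 with library totals, with TMM over the 2 day 0 libraries or with DESeq2 size factors. Subunits of the variant complexes were thus present in both libraries, with a median log2 ratio of −0.04 against 0.06 for all genes compared.

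Of 13 listed canonical PRC1 subunits 10 were compared, 2 at least 2-fold higher and 2 lower, against 7.48% and 4.33% of all genes. Both higher ones entered through their null level, and of the 8 at 5 CPM or more in wild type cells 0 were higher. Scml2, an X-linked Polycomb protein abundant in germ cells, was at 40.8 against 4.62 CPM, a ratio of 8.83 (5.16 to 16.4). In the later cultures Scml2 was at 2.47 to 8.63 CPM in null libraries, against 4.26 to 7.35 CPM in wild type ones, and those ranges overlap. The polyhomeotic gene Phc2 was at 6.26 against 1.32 CPM (4.74, 1.7 to 18.3). Scmh1 was at 35 against 81.5 CPM (0.43, 0.356 to 0.519) and Bmi1, the PCGF4 subunit, at 4.06 against 9.9 CPM (0.41, 0.23 to 0.726). In PRC2, which methylates histone H3, 11 of 12 compared subunits were within 2-fold. The exception was the accessory subunit Phf19, at 2.54 against 9.24 CPM, and the methyltransferase Ezh2 was at 605 against 447 CPM.

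Genes of the germ line were mostly higher in null cells. Over 3 lists of germ cell genes, 84 were found in the table and 46 were compared, the other 38 being under 5 CPM in both libraries. Of the 46, 29 were at least 2-fold higher in null cells and 1 was lower, and 20 were at least 4-fold higher. A gene that entered only through its null level had to be higher, so the wild type level gives a stricter view. Among the 33 germline genes at 5 CPM or more in wild type cells, 16 (48.5%) were at least 2-fold higher, against 3.43% of all 10013 such genes. Of the 29, 25 had a counting interval wholly above 2-fold. The lists were chosen with earlier results of these data known, so these counts describe the group and are not independent evidence.

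**Figure D2:**
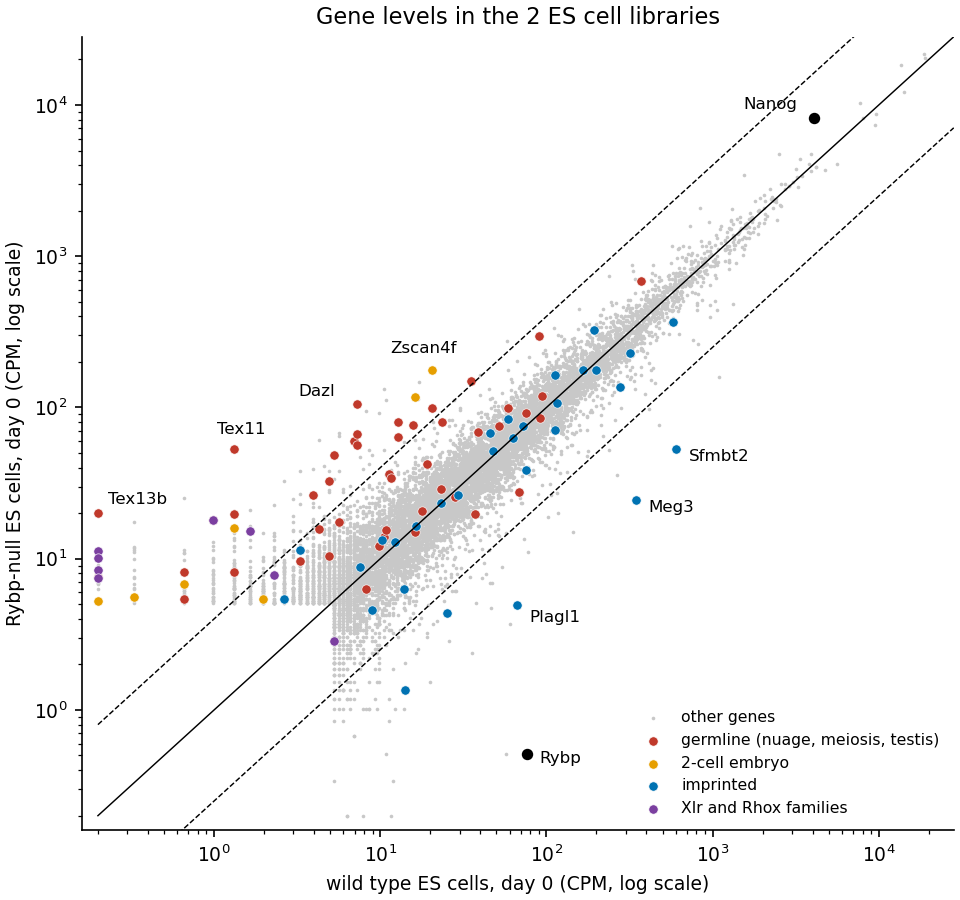
Level of each of the 10865 compared genes in wild type (x) and Rybp-null (y) ES cells, in CPM on log scales; colours mark gene lists, the solid line equal levels and the dashed lines 4-fold differences, and genes at 0 are drawn at 0.2. Germline genes in red lie mostly above the solid line, while Meg3, Plagl1 and Sfmbt2 lie below the lower dashed line and Rybp stands at 0.508 against 76.2 CPM.

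The nuage is the granule of germ cells where piRNAs, small RNAs that silence transposons, are made. Of its 20 listed genes 14 were compared, and 11 were at least 2-fold higher in null cells. Of the 12 at 5 CPM or more in wild type cells 9 were higher. Dazl, an RNA-binding protein required for germ cells, was at 105 against 7.26 CPM (14.4, 9.45 to 23.2). The piRNA-binding protein Piwil2 was at 48.2 against 5.28 CPM (9.14, 5.53 to 16.2) and the Tudor protein Tdrkh at 59.9 against 6.93 CPM (8.65, 5.57 to 14.1). Stk31 was at 56.3 against 7.26 CPM (7.76, 5.04 to 12.6), and the piRNA precursor helicase Mov10l1 at 80.4 against 12.9 CPM (6.25, 4.5 to 8.9). Mael, a piRNA pathway protein, was at 99.5 against 20.5 CPM (4.86, 3.74 to 6.43). The helicase Ddx4, the mouse vasa homologue, was at 149 against 35.3 CPM (4.23, 3.46 to 5.22) and Rnf17 at 296 against 90.4 CPM (3.28, 2.88 to 3.74). Most of these genes were therefore already transcribed in wild type ES cells. The Tudor gene Tdrd12 went the other way, at 27.8 against 68 CPM (0.408, 0.331 to 0.504).

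Of 29 listed meiosis genes 15 were compared, 9 at least 2-fold higher and 0 lower, and of the 11 at 5 CPM or more in wild type cells 5 were higher. Tex11, an X-linked gene of meiotic crossing over, was at 53.5 against 1.32 CPM (40.5, 15.7 to 150). Tex15, needed for repair of meiotic breaks, was at 67 against 7.26 CPM (9.23, 6.01 to 14.9). The synaptonemal complex genes Sycp2 and Syce1 were at 32.8 against 4.95 CPM and at 77 against 15.8 CPM, ratios of 6.63 (3.92 to 12.1) and 4.86 (3.61 to 6.69). Hormad2, of the chromosome axis, was at 26.4 against 3.96 CPM (6.67, 3.71 to 13.2), and the meiotic cohesin Smc1b at 80.7 against 23.4 CPM (3.45, 2.68 to 4.49). Stra8, the retinoic acid target that starts meiosis, was at 36.6 against 11.2 CPM (3.26, 2.26 to 4.83). Not all of its genes differed, for Sycp3 was at 91.4 against 75.2 CPM, a log2 ratio of 0.28.

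Of 36 listed genes of testis or oocyte 17 were compared, 9 at least 2-fold higher and 0 lower. Most of the 9 entered through their null level, and of the 10 members at 5 CPM or more in wild type cells 2 (20%) were higher. Tex13b had 119 counts in null and 0 in wild type cells, at least 20.3-fold higher against a floor of 3 counts per library. Nxf2, an RNA export factor, had 45 counts against 0, at least 7.69-fold higher. The bromodomain protein Brdt was at 19.8 against 1.32 CPM (15, 5.71 to 56). Slc25a31, the ADP/ATP carrier of sperm, had 48 counts against 2 (12.3, 3.23 to 105). Taf7l, a testis paralog of a general transcription factor subunit, was at 63.6 against 12.9 CPM (4.95, 3.55 to 7.07), and for the deubiquitinase Usp26 the ratio was 2.2 (1.65 to 2.98). Of the 29 higher germline genes 7 lie on the X and 8 on chromosomes 1, 6, 8 and 14, the chromosomes with the highest median ratios. Off those 4 chromosomes 21 of 36 compared germline genes were at least 2-fold higher, against 6.05% of all genes there. That split keeps genes that entered through their null level alone, which had to be higher. Of the 29 higher germline genes, 16 reached 5 CPM in wild type cells.

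The promoters of these genes were read from RefSeq on GRCm38.p6, as the 250 bases before each start. Searched on both strands were the E-box CACGTG, the site of MGA with MAX, and the E2F core GCGGGA, whose other strand reads TCCCGC. The E-box was in 6.02% of 32851 promoters and in 8.77% of those of compared genes. It was in 30.2% of 86 germline promoters, which belong to 71 of the 84 genes. The share was 36.7% of 30 promoters of germline genes at least 2-fold higher and 35.0% of 20 promoters of the compared germline genes that were not. Over all genes at least 4-fold higher it was 10.2%, and over those 4-fold lower 3.95%. The E-box share was thus above that of all compared genes in the germline lists, and it differed little between their higher members and the others. The E2F core was in 16.9% of all promoters, 31.0% of those of compared genes, 26.7% of those of the higher germline genes and 55.0% of those of the others. A match is a stretch of letters and not a measured site. The sequences below show 5 germline genes at least 4-fold higher that were chosen for holding the E-box, which others such as Tex13b, Dazl, Sycp2 and Hormad2 lack in this window, with E-box and E2F core in capitals, from the bases farthest upstream to the base before the start: Brdt (chr5:107330944-107331193, plus strand), Stk31 (chr6:49395354-49395603, plus strand), Taf7l (chrX:134476491-134476740, minus strand), Mael (chr1:166238745-166238994, minus strand) and Ddx4 (chr13:112652311-112652560, minus strand).
Brdt: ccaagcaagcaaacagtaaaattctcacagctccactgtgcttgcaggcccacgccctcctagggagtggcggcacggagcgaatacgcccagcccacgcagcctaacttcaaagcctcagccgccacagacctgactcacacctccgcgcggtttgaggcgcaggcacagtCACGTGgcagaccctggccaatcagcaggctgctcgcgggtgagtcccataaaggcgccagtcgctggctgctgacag
Stk31: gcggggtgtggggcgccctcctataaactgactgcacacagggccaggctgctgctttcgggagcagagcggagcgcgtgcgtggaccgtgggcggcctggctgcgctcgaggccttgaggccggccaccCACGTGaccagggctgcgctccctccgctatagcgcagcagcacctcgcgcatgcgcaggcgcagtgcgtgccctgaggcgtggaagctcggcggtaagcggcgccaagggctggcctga
Taf7l: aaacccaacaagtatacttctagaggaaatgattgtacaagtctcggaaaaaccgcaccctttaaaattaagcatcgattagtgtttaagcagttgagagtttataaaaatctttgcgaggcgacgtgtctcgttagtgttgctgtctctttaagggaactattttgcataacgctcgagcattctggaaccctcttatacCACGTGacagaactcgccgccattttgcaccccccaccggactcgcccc
Mael: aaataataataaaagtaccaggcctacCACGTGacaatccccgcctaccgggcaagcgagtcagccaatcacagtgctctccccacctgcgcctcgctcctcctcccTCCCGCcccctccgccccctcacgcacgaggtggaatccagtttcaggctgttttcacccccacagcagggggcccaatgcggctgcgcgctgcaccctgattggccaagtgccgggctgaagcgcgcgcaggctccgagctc
Ddx4: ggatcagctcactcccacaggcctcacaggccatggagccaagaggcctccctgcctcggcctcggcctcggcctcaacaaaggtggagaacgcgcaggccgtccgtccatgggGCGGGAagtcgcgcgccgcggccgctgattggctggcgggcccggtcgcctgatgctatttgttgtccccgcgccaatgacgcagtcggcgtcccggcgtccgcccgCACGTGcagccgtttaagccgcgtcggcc
Brdt, Stk31 and Taf7l hold the E-box alone, whose first base lies 78, 120 and 49 bases before the start. Mael and Ddx4 hold both motifs. Both were found in 6.67% of promoters of the higher germline genes, in 25% of those of the compared germline genes that were not higher, and in 2.85% of those of all compared genes.

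Genes of the 2-cell embryo were higher as well. Of 20 listed, 12 matched a gene in the table and 7 were compared, and each of the 7 was at least 2-fold higher in null cells. Zscan4f and Zscan4c, of the zinc finger cluster that marks the 2-cell-like state, were at 178 against 20.5 CPM (8.69, 6.72 to 11.4) and at 118 against 16.2 CPM (7.29, 5.45 to 9.94). Sp110, on chromosome 1, was at 15.9 against 1.32 CPM (12.1, 4.55 to 45.2), and Tmem92 had 31 counts against 0, at least 5.3-fold higher. The deubiquitinase genes Usp17la and Usp17lc had 33 counts against 1 (16.9, 2.83 to 689) and 40 against 2 (10.3, 2.66 to 87.6). The retrogene Zfp352 was at 5.42 against 1.98 CPM (2.74, 1.13 to 8). In wild type cells 2 of the 7, Zscan4f and Zscan4c, reached 5 CPM, so the other 5 entered through the null library alone. Zscan4 and Usp17l genes are families of close copies, between which reads may be shared, and their single values are uncertain. In the later cultures Zscan4f was at 0 to 0.989 CPM in every library.

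The X-linked Xlr and Rhox families, clusters of genes expressed in germ cells and placenta, had 8 of 22 listed genes compared. Of these 7 were at least 2-fold higher, none of them at 5 CPM in wild type cells. Xlr4a, Xlr4b and Xlr4c had 66, 60 and 50 counts in null cells and 0 in wild type cells. These are lower bounds of 11.3-fold, 10.3-fold and 8.55-fold. Xlr3a was at 15.2 against 1.65 CPM (9.23, 3.81 to 29.1), Rhox13 at 18.1 against 0.99 CPM (18.3, 6.09 to 90.1), and Rhox10 had 44 counts against 0, at least 7.52-fold higher. Rhox9 was at 2.88 against 5.28 CPM, with an interval that holds 1 (0.259 to 1.15). The Xlr4 and Xlr3 genes are near copies of each other, so how counts divide among them is uncertain. The X as a whole was even, with a median log2 ratio of 0.01 over 490 genes. It held 9.74% of the 4-fold higher genes and 7.69% of the 4-fold lower genes, against 4.51% of all genes compared.

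**Figure D3:**
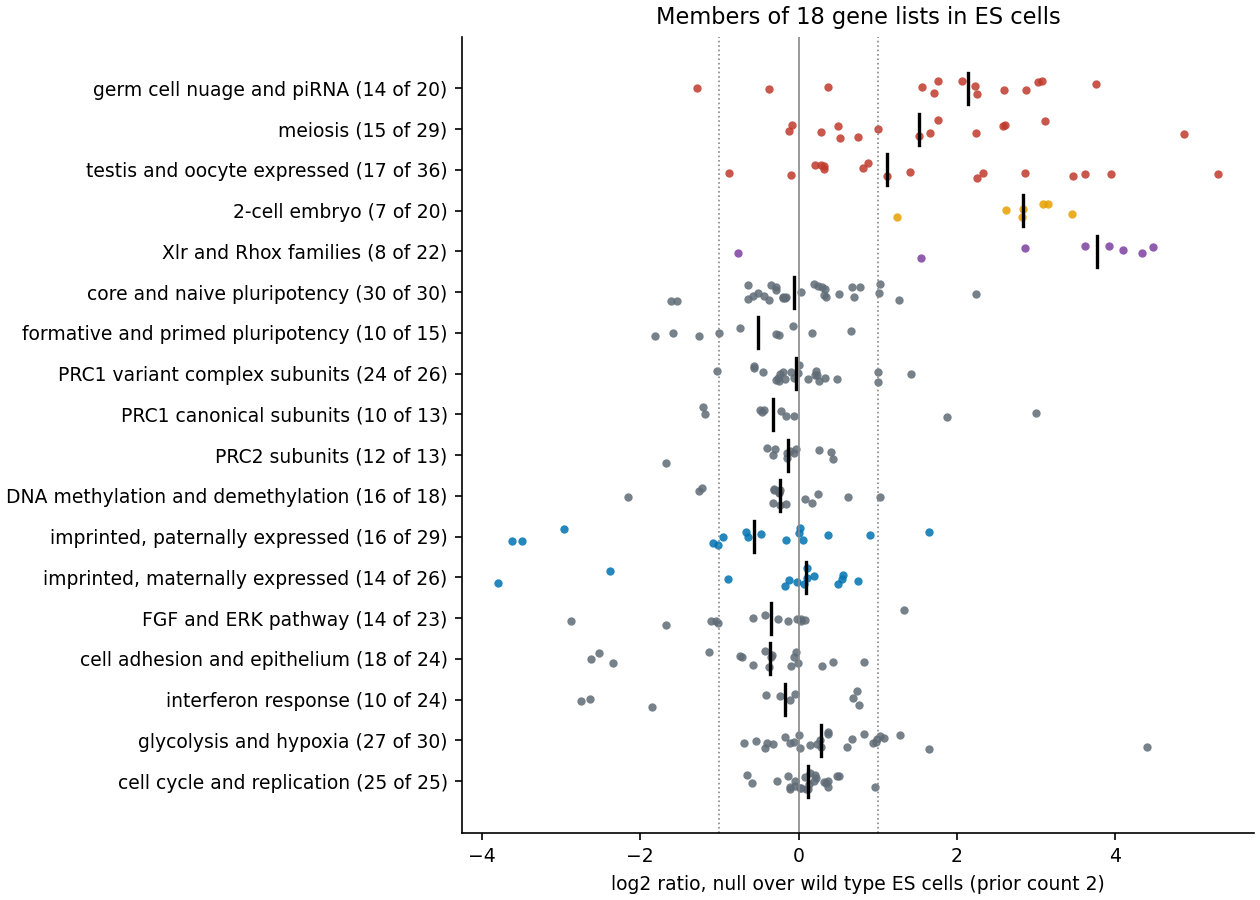
Log2 ratio of null over wild type ES cells (prior count of 2) for the compared members of 18 of the 36 gene lists, chosen to show the groups described at length; each point is a gene, the black bar the median, dotted lines 2-fold, and brackets give members compared of those listed. The germline, 2-cell embryo and Xlr lists have medians from 1.12 to 3.77, while the other lists drawn lie between −0.56 and 0.28; of those not drawn, primitive and visceral endoderm (3 genes) and trophoblast (5 genes) have medians of 1.74 and 1.34 and fibroblast −0.73.

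Imprinted genes, expressed from 1 parental copy, held several of the lowest ratios. Of 29 listed paternally expressed genes 16 were compared, 5 at least 2-fold lower and 1 higher, against 4.33% and 7.48% of all genes. Plagl1 and Rtl1 were under 5 CPM in null cells and entered through their wild type level alone, so they could only be lower. Usp29, the higher one, entered through its null level. Plagl1, a zinc finger factor of growth control, had 29 counts against 201 (wild type over null 13.5, 9.12 to 20.7). Sfmbt2, a Polycomb-related gene of the placenta, was at 53.3 against 606 CPM (11.4, 10.1 to 12.9), though in the later cultures it was called higher in null (log2 fold change 2.67, edgeR adjusted p = 0.0251). Rtl1, a retrotransposon-derived gene of the Dlk1-Meg3 locus, had 8 counts against 43 (10.5, 4.87 to 25.8). Nnat was at 6.26 against 13.9 CPM and Peg3 at 137 against 279 CPM, wild type over null ratios of 2.21 (1.39 to 3.54) and 2.03 (1.84 to 2.24). Usp29, next to Peg3, was higher at 11.5 against 3.3 CPM (3.49, 1.79 to 7.6). Igf2, the growth factor, was even at 23.4 against 23.1 CPM.

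Of 26 listed maternally expressed genes 14 were compared, and 2 were at least 2-fold lower, against 4.33% of all genes. Of these 2, Cdkn1c was under 5 CPM in null cells and entered through its wild type level alone. The noncoding RNA Meg3 was at 24.5 against 347 CPM (wild type over null 14.1, 11.9 to 16.9). The cell cycle inhibitor Cdkn1c was at 4.4 against 25.1 CPM (5.7, 3.61 to 9.27), and it too was called higher in the later null cultures (0.75, edgeR adjusted p = 0.0197). H19, next to Igf2, was at 51.3 against 47.5 CPM and Grb10 at 165 against 113 CPM. Of the Dlk1-Meg3 locus on chromosome 12, Dlk1 itself had 12 counts against 3 and was too low to compare. Gm24895 and Gm23474, small nucleolar RNA genes that lie within Rian, next to Meg3, in GENCODE vM21, had 2 counts against 36 and 5 against 16, and they were picked after their values were seen. Meg3, Rtl1 and these small RNAs overlap or lie close together, partly on opposite strands, and the strand setting of the counting is not given in the sources used here, so their counts are not independent. Low ratios were thus seen at the Meg3 locus, Plagl1, Sfmbt2 and Cdkn1c, while Igf2, H19 and most other imprinted genes were within 2-fold.

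All 30 listed genes of core and naive pluripotency reached 5 CPM in at least 1 library, and 24 were within 2-fold. Pou5f1 was at 154 against 172 CPM (0.898, 0.805 to 1) and Sox2 at 159 against 182 CPM (0.871, 0.783 to 0.969). The naive factors Klf4 and Esrrb were at 163 against 94.7 CPM and at 707 against 594 CPM. Nanog was at 8244 against 4088 CPM (2.02, 1.98 to 2.06), a ratio that falls to log2 0.94 with DESeq2 size factors. Tbx3 was at 276 against 58.1 CPM (4.75, 4.07 to 5.59), and it was the only 1 of the 195 genes above 50 CPM in wild type cells. Tfcp2l1, on chromosome 1, was at 804 against 334 CPM (2.41, 2.25 to 2.58), and Dppa3 at 16.1 against 7.59 CPM (2.12, 1.33 to 3.5). Lin28a, which holds back let-7 microRNAs, was at 146 against 447 CPM (0.325, 0.298 to 0.355), and the X-linked Nr0b1 at 9.14 against 27.4 CPM (0.334, 0.232 to 0.476). Of the 4 genes at least 2-fold higher, Nanog, Tfcp2l1 and Dppa3 lie on chromosomes 1 and 6.

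Of the formative and primed genes, 4 of 10 compared were at least 2-fold lower, against 4.33% of all genes, and 0 higher, with 5 of 15 listed too low to compare. Lef1, Zic2 and Lefty1 were under 5 CPM in null cells. They entered through their wild type level alone and could only be lower, so the count does not measure a shift of the list. Lef1 was at 3.38 against 13.2 CPM (0.256, 0.142 to 0.449), Zic2 at 3.38 against 11.2 CPM (0.302, 0.165 to 0.539) and the Nodal inhibitor Lefty1 at 2.37 against 5.28 CPM (0.449, 0.203 to 0.981). Dnmt3b, a de novo DNA methyltransferase, was at 176 against 423 CPM (0.417, 0.384 to 0.452). It was joined in the DNA methylation list by its cofactor Dnmt3l, at 52.6 against 237 CPM (0.222, 0.194 to 0.254), and by Mbd3, at 2.54 against 6.6 CPM (0.385, 0.183 to 0.791). The maintenance enzyme Dnmt1 was at 867 against 1025 CPM, Dnmt3a at 128 against 152 CPM, and the demethylase Tet1 at 284 against 351 CPM. Of 16 compared genes of DNA methylation 12 were within 2-fold, 3 were lower (Dnmt3b, Dnmt3l and Mbd3) and 1, Dppa3, was higher. Mbd3 too entered through its wild type level alone.

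In the FGF and ERK pathway 5 of 14 compared genes were at least 2-fold lower and 1 was higher, of 23 listed, against 4.33% and 7.48% of all genes. The receptor Fgfr2 was at 35.5 against 264 CPM (0.134, 0.115 to 0.157). Its targets Egr1 and Myc were at 8.63 against 28.7 CPM (0.301, 0.209 to 0.43) and 43.8 against 94.7 CPM (0.463, 0.39 to 0.55). The cyclin Ccnd1 was at 104 against 214 CPM (0.485, 0.434 to 0.543) and the inhibitor Spred1 at 92.7 against 187 CPM (0.495, 0.439 to 0.558). Etv4, an ETS factor induced by the pathway, was the higher one at 20.8 against 7.92 CPM (2.63, 1.69 to 4.26).

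In the TGF-beta, Nodal and BMP pathway 2 of 24 compared genes were at least 2-fold higher and 4 lower, of 38 listed, against 7.48% and 4.33% of all genes. The activin subunit Inhba had 1 count in null and 19 in wild type cells (wild type over null 37, 5.89 to 1539), while the subunit Inhbb was at 37.1 against 13.9 CPM (2.67, 1.92 to 3.82). The BMP receptor Acvr1 was at 12.2 against 3.96 CPM (3.08, 1.66 to 6.23), the BMP target Id1 at 3.72 against 9.9 CPM (0.376, 0.207 to 0.674) and the SMAD corepressor Skil at 509 against 1037 CPM (0.491, 0.467 to 0.516). Inhba and Id1 entered through their wild type level alone and Acvr1 through its null level alone, which fixed their directions. In the Wnt pathway 12 of 15 compared genes of 38 listed were within 2-fold. The Wnt inhibitor Sfrp1 was at 121 against 39.9 CPM (3.03, 2.49 to 3.7), and besides Lef1 the repressor Tcf7l1 was at 23.5 against 69.9 CPM (0.336, 0.27 to 0.419). Counts in both directions left these 2 lists with medians of 0.16 and 0.23, near the 0.06 of all genes.

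Of 18 compared genes of adhesion and epithelium 4 were at least 2-fold lower and 0 higher, against 4.33% of all genes lower. The epithelial factor Grhl2 was at 6.94 against 45.5 CPM (0.152, 0.105 to 0.217) and the splicing regulator Esrp1 at 20 against 117 CPM (0.171, 0.138 to 0.211). Genes of the opposite, mesenchymal program were lower too, with Zeb2 at 1.52 against 9.9 CPM (0.154, 0.0643 to 0.332) and vimentin, Vim, at 21.5 against 47.5 CPM (0.452, 0.354 to 0.578). In the interferon list 3 of 10 compared genes were lower, a small list set against the same 4.33%, Ifitm1 at 11 against 77.2 CPM (0.142, 0.107 to 0.188), Ifitm3 at 48.1 against 175 CPM (0.275, 0.238 to 0.319) and Oasl2 with 4 counts against 21. Zeb2 and Oasl2 entered through their wild type level alone, where a gene could only be lower.

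All 25 cell cycle genes and all 15 compared respiratory chain genes were within 2-fold, as were 17 of 18 genes of lipid synthesis, where Scd1 was at 40.6 against 18.8 CPM. Mcm6, of the replication helicase, was at 412 against 210 CPM (1.96, 1.79 to 2.14) and lies on chromosome 1. In glycolysis and hypoxia 5 of 27 compared genes were at least 2-fold higher and 0 lower, against 7.48% of all genes higher. Car12, Ankrd37 and Eno2 entered through their null level alone, and of the 24 members at 5 CPM or more in wild type cells 2 (8.33%) were higher, against 3.43% of all such genes. Car12 had 104 counts against 1 (53.3, 9.37 to 2127), the angiogenic factor Vegfa was at 45.9 against 18.5 CPM (2.48, 1.86 to 3.37) and Ankrd37 at 5.25 against 1.32 CPM (3.98, 1.41 to 15.5). Eno2, on chromosome 6, and Ddit4 were at 11 against 4.95 CPM and at 37.6 against 18.1 CPM. Asparagine synthetase, Asns, an ATF4 target on chromosome 6, was at 338 against 111 CPM (3.06, 2.72 to 3.44), and 15 of 16 compared genes of that list were within 2-fold.

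Among p53 targets and cell cycle inhibitors 3 of 15 compared genes were higher and 1 lower, and of the 14 at 5 CPM or more in wild type cells 2 (14.3%) were higher, against 3.43% of all such genes. The proapoptotic Pmaip1 was at 52.1 against 10.6 CPM (4.94, 3.42 to 7.35), Btg2, on chromosome 1, at 17.9 against 4.95 CPM (3.62, 2.1 to 6.7) and Sesn1 at 31 against 14.2 CPM (2.18, 1.56 to 3.12). The caspases Casp9 and Casp8 were at 9.81 against 1.98 CPM (4.96, 2.15 to 14.1) and at 11 against 2.64 CPM (4.17, 1.99 to 10.1), and they were the 2 higher genes of 17 compared in the apoptosis list. Both entered through their null level, and of the 15 members at 5 CPM or more in wild type cells 0 were higher. Casp8 lies on chromosome 1.

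Markers of differentiated cells were low in both libraries. None of the 37 matched Hox genes reached 5 CPM, and under that minimum were 24 of 26 genes of streak and mesoderm, 14 of 17 of primitive and visceral endoderm, 20 of 26 neural, 14 of 19 cardiac, 13 of 16 endothelial and blood, 14 of 19 trophoblast and 15 of 22 fibroblast genes. Among the compared ones, the neural factor Pax6 was at 3.72 against 60.7 CPM (wild type over null 16.3, 10.5 to 26.7) and En1 at 1.35 against 5.61 CPM. Both entered through their wild type level alone, where a gene could only be lower. Eomes, of mesoderm and trophoblast, was at 10.3 against 2.31 CPM (4.47, 2.04 to 11.6), and Tead4 and Elf3, of trophoblast, at 10.8 against 3.96 CPM and 8.29 against 2.64 CPM. Of the 3 compared genes of primitive and visceral endoderm, 2 were at least 2-fold higher and 1 was lower. The higher ones, the endocytic adaptor Dab2 and the endocytic receptor Cubn, were at 30 against 8.58 CPM and 5.75 against 1.32 CPM. Cubn, like Eomes, Tead4 and Elf3, entered through its null level alone. The lower one was the receptor Fgfr2, at 35.5 against 264 CPM. Summed over the 17 matched genes of that list, the level was 80.9 against 282 CPM. Titin, Ttn, a giant protein of the sarcomere, was at 132 against 341 CPM (0.387, 0.352 to 0.425). All 10 compared genes of parietal endoderm and basement membrane were within 2-fold.

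Fibroblasts can come along with ES cells as feeders, and their markers were summed over the list at 54.7 CPM in null and at 87.4 CPM in the wild type cells. The collagen genes Col1a1 and Col1a2 were at 4.57 against 7.92 CPM and 1.69 against 3.63 CPM, and 7 of the 22 genes had 0 counts in null and 6 in wild type cells. Of 7 compared, 3 were at least 2-fold lower and 2 higher, against 4.33% and 7.48% of all genes. The matrix protein Postn had 0 counts against 24, at least 15.6-fold lower, smooth muscle actin, Acta2, was at 2.37 against 16.5 CPM (0.144, 0.0733 to 0.264) and biglycan, Bgn, at 4.06 against 17.5 CPM (0.232, 0.137 to 0.383). Thy1 and Col5a1 were the higher ones, at 6.26 against 1.98 CPM and 5.75 against 2.31 CPM. Postn, Acta2 and Bgn entered through their wild type level alone, and Thy1 and Col5a1 through their null level alone. The direction of each was thus fixed by the 5 CPM minimum. Tnc and Thbs1, matrix genes among the 20 lowest ratios, were at 1.02 against 12.2 CPM and 2.88 against 26.1 CPM. What part such cells had in the lower matrix genes was not tested.

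The 20 largest ratios in each direction held further genes of no list. Upward, the protease inhibitor A2m, the interleukin receptor Il1r1, the transporter Abcb5 and the lipid enzyme Lpcat2 had 113, 54, 51 and 44 counts in null cells and 0 in wild type cells. These are lower bounds of 19.3-fold, 9.23-fold, 8.72-fold and 7.52-fold. The calcium pump Atp2b2 and the zinc finger genes Zc3h6 and Zfp94 had 70, 71 and 68 counts against 1. Fam124a, Lonrf3, Ap5s1, Mfsd10 and Muc4 had 41 to 51 counts against 0. Downward, the ubiquitin ligase Trim36 had 1 count against 35, the glutathione transferase Gstm2 had 3 against 33 (wild type over null 21.4, 6.73 to 109) and Clca4a had 0 against 19, at least 12.3-fold lower. The protease inhibitors Spink1 and Serpind1 had 14 counts against 108 and 6 against 42, the DNA sensor Aim2 89 against 438 (9.59, 7.62 to 12.2) and Clca3b 28 against 140. The calcium release channel Ryr3 was at 0.846 against 11.2 CPM. Of the 78 lower genes 19 were at 50 CPM or more in wild type cells, Aim2 among them.

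The genes next to the 4-fold limit were as follows. Eya1, inside, had 103 counts against 12 and a log2 ratio of 2.00, and Zc3hav1, outside, was at 112 against 27.7 CPM and 1.99. Downward, Rasgrp2, inside, had 155 counts against 323, and Slc40a1, outside, 7 against 19 (log2 ratio −1.99).

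The genes of whole chromosomes differed between the libraries. The median log2 ratio was 0.55 on chromosome 1, 0.41 on chromosome 14, 0.28 on chromosome 8 and 0.26 on chromosome 6, while the other 15 autosomes had medians between −0.07 and 0.03. On chromosome 1, 84.4% of 639 compared genes were above 0, and on chromosome 14, 78.5% of 377. In the cultures of days 8 and 14, whose libraries are separate from those of day 0, the same 4 chromosomes had the highest medians, at 0.44, 0.37, 0.13 and 0.21 for chromosomes 1, 14, 8 and 6, and the other autosomes were between −0.11 and −0.03. These 4 chromosomes hold 18.6% of compared genes, 34.2% of those at least 2-fold higher, 26.7% of those at least 4-fold higher and 5.13% of those 4-fold lower. Their medians correspond to ratios of 1.20 to 1.47, well under 4-fold.

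On the Y, 3 genes were compared. The helicase Ddx3y was at 8.8 against 53.8 CPM (wild type over null 6.11, 4.45 to 8.52) and the demethylase Uty at 6.94 against 47.2 CPM (6.8, 4.77 to 9.87). Eif2s3y, a translation factor, was even at 202 against 192 CPM. On the X, the noncoding RNA Xist was at 143 against 177 CPM. Ddx3y and Uty overlapped between genotypes in none of the later groups, and Eif2s3y was at 144 to 171 CPM in null and at 181 to 190 CPM in the wild type cultures.

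**Figure D4:**
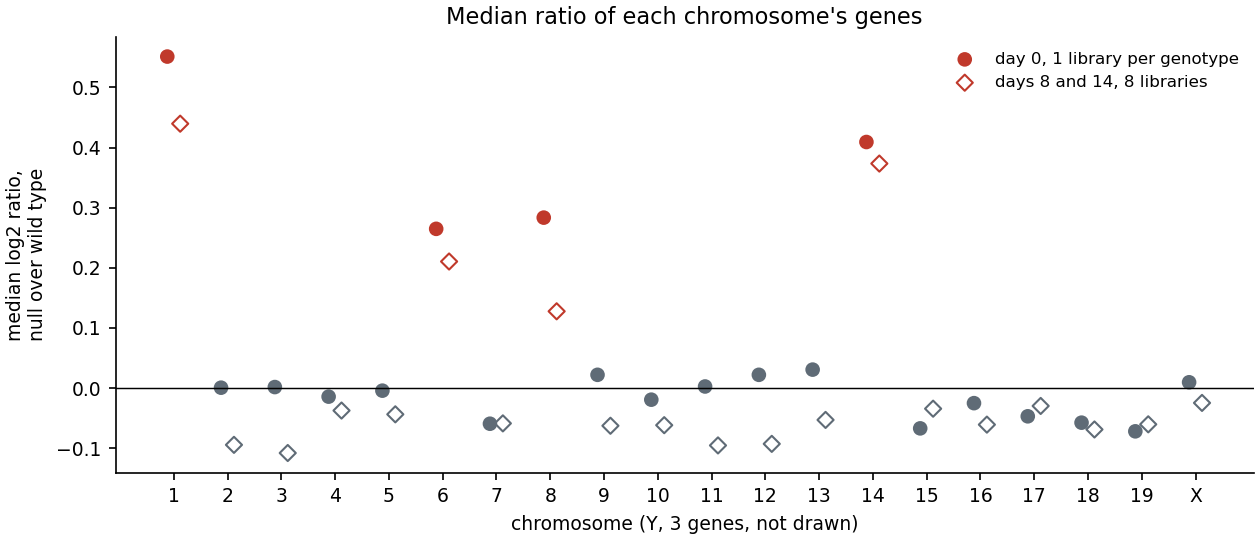
Median log2 ratio of null over wild type for the genes of each chromosome, in ES cells (circles, 1 library per genotype) and in the cultures of days 8 and 14 (diamonds, 8 libraries); chromosomes 1, 6, 8 and 14 are in red. Chromosome 1 was highest at both, with 0.55 and 0.44, and the other autosomes lay between −0.11 and 0.03.

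The cultures of days 8 and 14 give replicated libraries in which the day 0 differences can be looked for. Null was compared with wild type over both days in their 8 libraries with edgeR's quasi-likelihood test, adjusted by Benjamini-Hochberg over 13888 genes. At an adjusted p under 0.05, 381 genes (2.74%) were called higher and 366 (2.64%) lower in null cultures. Leaving out 1 wild type library brought these counts to 72 and 110 (day 8 replicate 1), 94 and 159 (day 8 replicate 2), 180 and 168 (day 14 replicate 1) or 89 and 133 (day 14 replicate 2), and without null day 14 replicate 1 they were 252 and 261. The labels do not say that replicates came from separate cultures, so these p-values measure the spread between these libraries, which may be technical. Of the 195 genes at least 4-fold higher at day 0, 119 were tested later and 16 were called higher, which is 13.4% of those tested, 8.21% of the 195 and 4.2% of the 381. Without wild type day 8 replicate 1 the 16 became 10. Of the 78 lower genes, 64 were tested and 13 were called lower, which is 20.3% of those tested, 16.7% of the 78 and 3.55% of the 366. Opposite calls numbered 1 and 4. By sign alone 71 of 119 and 43 of 64 kept the day 0 direction. From the other side, 261 of 319 genes called higher later were above 0 at day 0, with a median log2 ratio of 0.47, and 110 of 203 called lower were below 0, with a median of −0.12. Of all compared genes, 66.1% to 84.4% were above 0 on each of chromosomes 1, 6, 8 and 14, and 42.3% to 53.8% on the other autosomes. Without those 4 chromosomes and the Y the 381 later calls became 115. What part of the 261 went with these chromosomes was not tested. Of the genes far apart in ES cells, most were not called in the later cultures, where 76 of the 195 and 14 of the 78 were not tested.

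Of the 16 genes called higher at both, 8 come from the germline lists, and their null and wild type libraries did not overlap. Tex11 was at 7.17 to 20.1 CPM in the 4 later null libraries and at 0 CPM in the 4 wild type libraries (log2 fold change 8.48, SE 0.86, edgeR adjusted p = 0.00107). Tex13b was at 7.88 to 11.8 CPM in null and at 0 to 0.304 CPM in the wild type libraries. Mael was at 8.16 to 23.9 against 0 to 0.255 CPM (7.66, SE 0.64, edgeR adjusted p = 0.000166), and Ddx4 at 3.95 to 31.1 against 0 to 0.511 CPM. Syce1, Stk31, Taf7l and Sycp2 were at 6.43 to 10.4, 4.7 to 6.04, 4.35 to 32.4 and 5.63 to 24.5 CPM in null libraries, and in wild type libraries at most at 0.639, 0.608, 1.52 and 2.82 CPM. The later null levels were below those of the null ES cells, and later wild type levels were near 0.

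Germline genes at least 2-fold higher at day 0 numbered 29, of which 16 were tested later, and 12 of these were called higher and 0 lower. Besides the 8 named, these were Rnf17, Tdrd1, Smc1b and Meioc, with log2 fold changes of 5.79, 5.06, 2.03 and 3.01. Of 14 germline genes tested later that had not been 2-fold higher at day 0, 4 were called higher, Sycp3, Stag3, Tex19.1 and Mageb16, and Prdm9 was called lower. Others went out of detection, such as Dazl, at 0 to 1.13 CPM in later null against 0.564 to 2.13 CPM in later wild type libraries, and Piwil2, at 0.725 to 1.15 CPM in null and at 0 to 1.53 CPM in the wild type libraries. Tex15 and Tdrkh were tested and did not pass, with edgeR adjusted p of 0.625 and 0.486.

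The other 8 shared higher genes were Xlr4a, Bche, Fam213a, Pmaip1, Tbx3, Pogk, Mt2 and Eya1, which no list or rule but this overlap brought together. Xlr4a was at 4.22 to 7.48 CPM in later null against 0 to 1.53 CPM in wild type libraries, and Pmaip1 at 18.1 to 49.4 against 4.79 to 17.6 CPM. The metal-binding Mt2 was at 19.9 to 27.6 against 10.1 to 13.5 CPM. For Bche, Tbx3, Pogk, Mt2 and Eya1 the call was lost in 5 or more of the 8 fits that leave out 1 library, while all 8 germline genes and Pmaip1 kept it in every such fit.

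Among the 13 genes called lower at both, apart from Rybp and Rybp-ps, imprinted genes led. Plagl1 was at 149 to 299 CPM in later null against 11149 to 22688 CPM in wild type libraries (log2 fold change −6.42, SE 0.21, edgeR adjusted p = 4.72e-08). Meg3 was at 120 to 215 against 1858 to 2349 CPM (−3.76, SE 0.18, edgeR adjusted p = 8.79e-07) and Rtl1 at 4.79 to 17.2 against 38.5 to 51.4 CPM (−2.20, SE 0.28, edgeR adjusted p = 0.00137). Gm24895 and Gm23474 were at most at 1.69 and 2.01 CPM in null and at least at 16.6 and 20.6 CPM in wild type libraries. From ES cells to the later days Plagl1 and Meg3 were far higher in both genotypes, and the gap between the genotypes stood at every day. Ddx3y was at 1.98 to 5.32 against 39.2 to 49.9 CPM and Uty at 4.11 to 6.43 against 22.7 to 43.2 CPM. The last 4 were Atp10a, Nexmif, Cst3 and Fndc3c1, of which Nexmif, Cst3 and Fndc3c1 lost the call in 5 or more of the fits that leave out 1 library and Atp10a in 2.

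**Figure D5:**
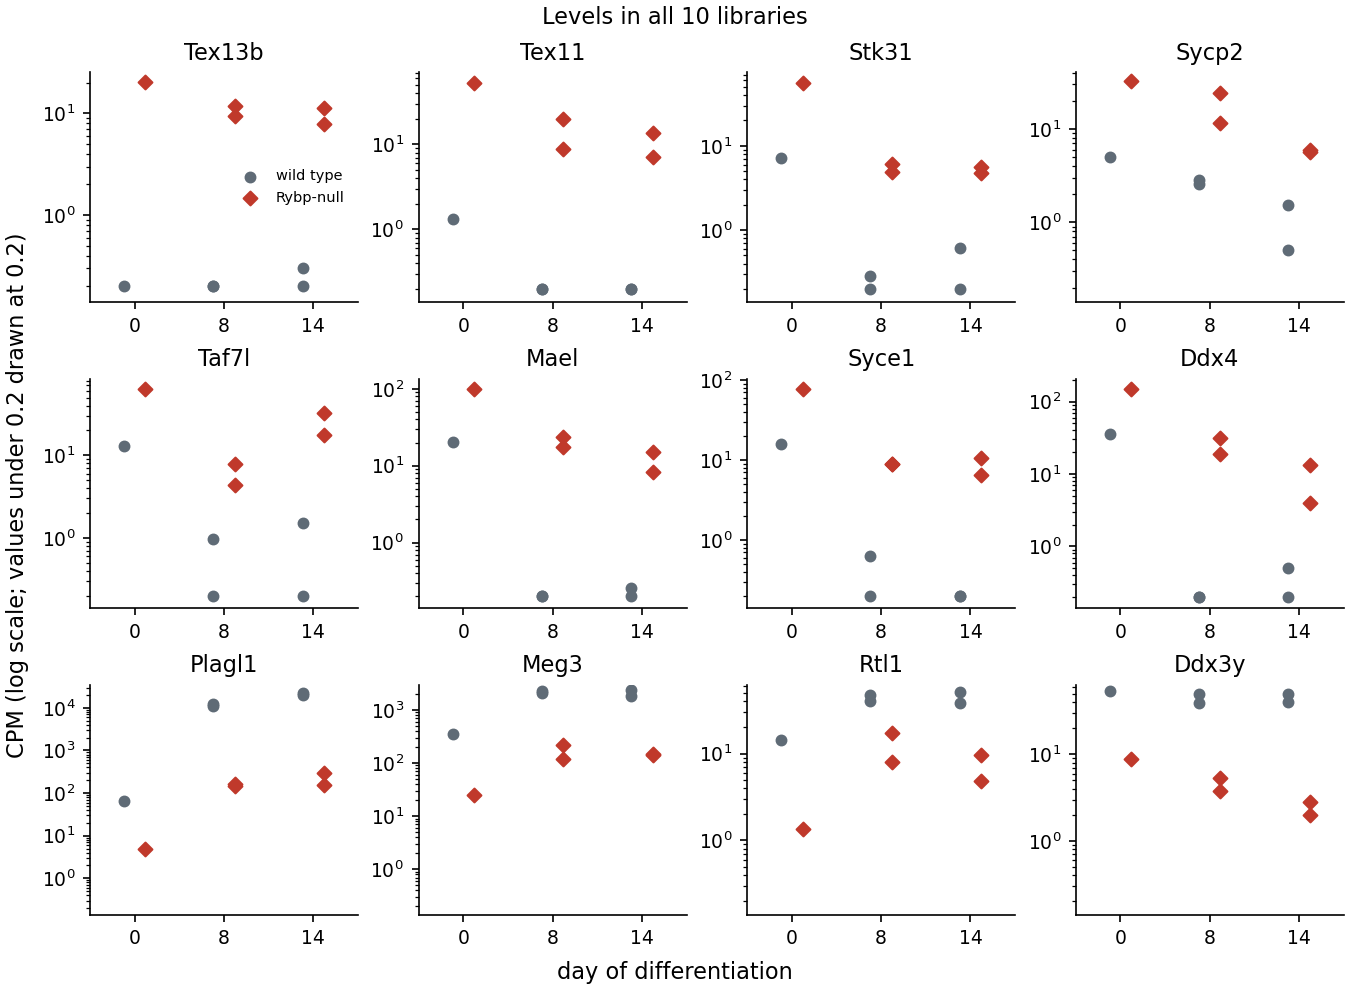
CPM (log scale) of 12 genes at least 4-fold apart in ES cells and called the same way in the later cultures, by day; each point is 1 library, grey circles wild type and red diamonds Rybp-null, with values under 0.2 drawn at 0.2. Null libraries lie above wild type ones for the 8 germline genes and below them for Plagl1, Meg3, Rtl1 and Ddx3y at every day.

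Several genes far apart in ES cells were not called later. Fgfr2 (edgeR adjusted p = 0.869), Car12 (0.71), Scml2 (0.972), A2m (0.329), Grhl2 (0.454), Asns (0.831) and Lin28a (0.887) did not pass, which does not show that the genotypes were alike. Peg3 was called lower later as well (log2 fold change −0.59, edgeR adjusted p = 0.00962), and Tdrd12, Dnmt3l, Nr0b1 and Dppa3 were too low in the later cultures to be tested. Egr1 was lower at both (−1.05, edgeR adjusted p = 0.0107).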

How the data were processed

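TRIzol extraction preceded library preparation, for which NuGEN's Ovation and Encore kits were used, per the labels' protocols. The authors deposited whole-number read counts per Ensembl gene, not normalized, for 10 libraries. The submitters' processing notes list TopHat, HTSeq and DESeq with the genome build mm9, and for their versions, the annotation release and the strand setting the sources used here give nothing. Symbols matched 30946 of 36191 gene IDs, and chromosomes and gene types came from GENCODE vM21.

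Library sizes were scaled by TMM over the 10 libraries on 15819 genes. A day 0 gene was compared at 5 CPM or more in either library. Log2 ratios used a prior count of 2, and intervals of ratios were exact Clopper-Pearson intervals. A count of 3 stood as the floor where a library had 0, at 0.99 CPM in wild type and 0.508 CPM in null cells. Days 8 and 14 were fitted with edgeR's quasi-likelihood test on 13888 genes with 4 residual degrees of freedom, adjusted by Benjamini-Hochberg, and DESeq2 was an alternative. Tools were R 4.3.3, edgeR 4.0.16, limma 3.58.1, DESeq2 1.42.0 and Python 3.11.15. Ratios and intervals were checked on simulated data.

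Named are fixed genes (Rybp, its paralog and partners, Pou5f1, Sox2, Nanog, Plagl1, Meg3), the 20 largest ratios each way with a proper symbol, and up to 6 members per list by size of ratio plus defining members. Genes shared between day 0 and later days, and values of other members, were picked after values were seen. A gene that this rule names is not reported here. Of 828 entries in 36 lists, 794 matched. The comparison and lists were chosen with earlier results of these data known.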

Additional observations from a re-analysis of the deposited data

Results flagged for a closer look

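The 4 genes below, at least 4-fold apart in ES cells, went the other way in the later cultures, where within each day both null libraries lay on the opposite side of both wild type libraries. The difference between day 0 and the later days was not tested, since day 0 has 1 library per genotype. Evi2a had a day 0 log2 ratio of 2.88 (5.75 against 0.33 CPM), and later it was at 2.3 to 11.3 CPM in null against 13.1 to 25.5 CPM in wild type libraries (log2 fold change −1.78, SE 0.32, edgeR adjusted p = 0.0106). Serpind1, a thrombin inhibitor, had −3.22 at day 0 and later 15 to 37.6 against 5.75 to 11.9 CPM (1.3, SE 0.33, edgeR adjusted p = 0.0451). Sfmbt2 had −3.49 at day 0 and later 166 to 399 against 26.5 to 102 CPM (2.67, SE 0.48, edgeR adjusted p = 0.0251). Cdkn1c had −2.38 at day 0 and later 170 to 311 against 89.4 to 174 CPM (log2 fold change later 0.75, SE 0.16, edgeR adjusted p = 0.0197).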

How the results depend on the processing

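The 195 genes higher by 4-fold or more became 374 at a minimum of 2 CPM, 102 at 10 CPM, 433 with no filter and 35 at 5 CPM in the wild type library alone, the last chosen after seeing the data. The 78 lower genes became 140 at 2 CPM, 168 with no filter and 167 where the 95% interval had to lie wholly beyond 2-fold. For days 8 and 14, the 381 higher and 366 lower calls became 806 and 659 with no filter, 115 and 202 without chromosomes 1, 6, 8, 14 and Y, and 598 and 561 with a replicate block. Replicate numbers are shared only as numbers (correlation of deviations 0.068 at day 8 and 0.20 at day 14, with 2 pairs), so the block is no pairing. Leaving out 1 library gave 72 to 569 higher and 110 to 512 lower calls, the lone library left in a group being assumed to vary like the others. The 16 genes higher at both became 28 with no filter, 9 without those chromosomes and 10 to 19 with 1 library left out, and the 13 lower ones became 20 with no filter on the day 0 list, 8 without those chromosomes and 9 to 15 with 1 library left out. DESeq2 called 432 higher and 384 lower. The median log2 ratio of primitive and visceral endoderm, 1.74 over 3 genes, became −0.62 with library totals, −0.60 with TMM over the 2 day 0 libraries, −0.48 with the null library thinned and −0.57 at 10 CPM, and that of trophoblast, 1.34, became −0.37 without those chromosomes. Both medians rest on few genes. Of the 3 endoderm genes Cubn, at 5.75 CPM in null cells, is near the 5 CPM minimum and under that of 10 CPM. Cubn also falls just under 5 CPM with library totals and with TMM over the 2 day 0 libraries, which scale the null library to a larger size. Its part with the null library thinned was not tested. Of the 3 higher trophoblast genes, 2 lie on the chromosomes left out. Of single genes, 1258 values stayed within their counting interval and 14 left it. Sign changes were counted only for genes at least 2-fold apart, and of those 0 changed sign. At this depth a gene under 0.99 CPM in wild type cells cannot be told from 0.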
